A study of Sus scrofa with 23 samples.

Results

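Immediate early genes were followed in the kidney cortex of newborn pigs: FOS, FOSB, JUN, JUNB, EGR1, EGR2, EGR3, ATF3, IER2 and NR4A1. They were chosen by symbol, and because their level in 1 library, CF1, was far above the rest, so the excess of CF1 is given below as a description and is not tested. Of the 10 listed genes, 9 had a transcript among the 26687 genes of the table, and all 9 passed the filter on low counts that 21434 genes passed over 23 libraries. NR4A1 (chr5:17403088-17407918 in Sscrofa11.1) is annotated there as a pseudogene, carried no transcript in the table and has no value here. The others lie at chr7:98449508-98451971 (FOS), chr6:51836780-51844531 (FOSB), chr6:153686425-153687635 (JUN), chr2:66214086-66219435 (JUNB), chr2:140440829-140445302 (EGR1), chr14:66280665-66291308 (EGR2), chr14:6943184-6948507 (EGR3), chr9:130772259-130829678 (ATF3) and chr2:65909638-65912491 (IER2). The libraries came from 11 pigs labelled CF (CFTR-/-), 6 labelled HET (CFTR+/-) and 6 labelled WT (wild-type), each library from a pig of its own, and the study compares CF with non-CF pigs, the WT and HET pigs as 1 group. All pigs were newborn, the labels name no treatment, tissue was taken from a similar position of each kidney, and total RNA was sequenced after removal of ribosomal RNA. The data did not hold to a single outlying library: 1 library of each label stood apart for some of these genes, CF1, HET20 and WT12, each named by its label and pig number.

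Immediate early genes are switched on by signals that reach a cell without the need for new protein synthesis, and their transcripts are short-lived. FOS and JUN family proteins pair to form the transcription factor AP-1, the EGR proteins are zinc finger factors that bind GC-rich DNA, ATF3 is a stress-responsive factor of the ATF/CREB family, and IER2 encodes a small nuclear protein. Many of them carry in their promoters the CArG box, the AT-rich site at which serum response factor acts with its partners of the ternary complex factor family. In the kidney the genes are known to respond within minutes to hours to ischaemia, stretch and growth factors.

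The CArG box was looked for in the 1000 bases before the start codon, because the annotated FOS gene begins at its start codon. It was present in 4 of 9 genes, FOS, FOSB, EGR1 and EGR3, and in 5.09% of 20642 genes searched the same way. EGR1 held 5 of them, while 0.126% of the genes searched held 2 or more. The windows of JUN, JUNB, EGR2, ATF3 and IER2 held none. The sites are printed on the coding strand with the motif in capitals and 10 bases on each side. FOS, FOSB, EGR1 and EGR3 are also the genes for which HET20 ranked 3 of 23, a match seen after the fact. For EGR3 that rank was narrow, at 1.42 CPM in HET20 against 1.13 in CF3. Whether the sites bear on these levels was not tested. In the gene models as annotated, the EGR1 and FOSB sites lie in the first exon before the coding sequence (5' UTR) and the FOS and EGR3 sites lie before the annotated start of the gene. All coordinates are in Sscrofa11.1, and the distance given is from the first base of the motif to the start codon.
FOS, chr7:98449042-98449071, plus strand, 456 bases before the start codon: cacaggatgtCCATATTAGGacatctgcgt
FOSB, chr6:51837436-51837465, plus strand, 831 bases: gcgccgagctCCTTATATGGctaattgcgt
EGR1, chr2:140440976-140441005, plus strand, 731 bases: cccggaaacgCCATATAAGGagcaggaagg
EGR1, chr2:140441014-140441043, plus strand, 693 bases: ccggaaccacCCTTATTTGGgcagcgcctt
EGR1, chr2:140441030-140441059, plus strand, 677 bases: ttgggcagcgCCTTATTTGGagcgccccga
EGR1, chr2:140441298-140441327, plus strand, 409 bases: gccggtcttgCCATATTAGGgcttcctgct
EGR1, chr2:140441320-140441349, plus strand, 387 bases: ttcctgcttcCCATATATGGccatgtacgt
EGR3, chr14:6948941-6948970, minus strand, 579 bases: ctttgtctgtCCATATATGGgcagctacgt

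The cyclic AMP response element TGACGTCA was in 0 of 9 windows and in 2.495% of all windows searched. The AP-1 site, TGACTCA on either strand, was in 0 of 9 and 12.84%. The EGR site, GCGTGGGCG on either strand, was in 0 of 9 and 1.381%. None of these 3 motifs contains another. A match describes letters only, and the absence of one says only that these letters are not in this window.

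Libraries held 32901194 to 52952229 estimated counts. The levels below are CPM, counts scaled to a common library size, after scaling by trimmed means of M values (TMM), and a count of 0 would allow up to 3 counts, or 0.0567 to 0.0912 CPM by library, an upper limit that covers counting error only. The lowest count of any of the 9 genes was 7, for EGR3 in HET15. CFTR, the targeted gene, was at 12.5 to 23.5 CPM in libraries labelled CF, at 9.40 to 17.5 in HET and at 1.27 to 3.67 in WT. That order goes against a loss of transcript in the libraries labelled CF, and the labels are therefore used below as labels only. The cortex was recognisable by its markers: LRP2, the proximal tubule receptor megalin, was at 3629 CPM or more in CF1, HET20 and WT12, and no proximal tubule marker of 7 was at or under 3 counts in every library. In bulk tissue, fewer cells of a type and less RNA per cell cannot be told apart.

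FOS, the best known member of the family, was at 417 CPM in CF1 (17142 counts), at 155 in WT12 (6288 counts) and at 61.9 in HET20 (3180 counts). The other 20 libraries had 2.23 CPM at the lowest, 3.48 at the median and 6.41 at the highest. No library lay between 6.41 and 61.9 CPM, so the gap between the 3 libraries and the rest was larger than the whole spread of the rest. CF1 was 120-fold, WT12 44.4-fold and HET20 17.8-fold above the median of the 20. By label, and with all libraries in, the mean was 41.7 ± 124 (SD, n = 11) in CF, 12.9 ± 23.99 (n = 6) in HET and 28.6 ± 61.7 (n = 6) in WT. Without the 3 libraries it was 4.15 ± 1.30 (SD, n = 10), 3.12 ± 0.813 (n = 5) and 3.35 ± 0.919 (n = 5), and the groups overlapped.

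FOSB, the close relative of FOS, had the same 3 libraries on top, with 85.8 CPM in CF1 (3529 counts), 30.4 in WT12 (1237 counts) and 22.3 in HET20 (1145 counts). The other 20 ran from 0.197 CPM in HET19 over a median of 0.695 to 2.15 in CF11, or 8 to 73 counts, so FOSB was close to silent in most pigs. The 3 libraries lay 123-fold, 43.7-fold and 32.0-fold above the median of the 20. Of the 21434 genes past the filter, FOS and FOSB were the only ones that exceeded 4 times the median of the other 22 libraries in all of CF1, HET20 and WT12.

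JUN, the main partner of FOS in AP-1, differed less. It was at 338 CPM in CF1 (13905 counts) and 58.7 in WT12 (2386 counts), and the other 20 libraries ran from 16.1 over 25.1 to 38.5 CPM. HET20 had 25.5 CPM (1309 counts) and ranked 10 of 23, inside the range of the others. JUNB, a JUN relative that is often a weaker activator, was at 229 CPM in CF1 (9416 counts), 73.0 in WT12 (2969 counts) and 28.5 in HET20 (1465 counts), against 10.2, 15.8 and 45.9 CPM as lowest, median and highest of the other 20. CF9 (45.9 CPM) and CF7 (40.7 CPM) had more JUNB than HET20, so HET20 lay within the range of the 20, although it was above the other 5 libraries labelled HET.

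EGR1, the most abundant EGR gene here, was at 313 CPM in CF1 (12887 counts), 199 in WT12 (8083 counts) and 46.2 in HET20 (2376 counts). The other 20 libraries ran from 7.19 over 13.1 to 23.1 CPM, below all 3. EGR3 kept that order, with 8.85, 6.47 and 1.42 CPM (364, 263 and 73 counts), against 0.175, 0.4702 and 1.13 CPM in the other 20. EGR2 was at 11.7 CPM in CF1 and 8.92 in WT12 (479 and 363 counts). HET20, at 3.60 CPM, lay within the 1.24 to 4.71 CPM of the other 20 libraries. For EGR1, EGR2 and EGR3, WT12 was thus much nearer to CF1 than for the JUN genes: WT12 was at 15.2-fold the median of the 20 for EGR1, where CF1 was at 23.9-fold, while for JUN the values were 2.34-fold and 13.5-fold.

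ATF3 was at 91.0 CPM in CF1 (3741 counts) and 28.9 in WT12 (1177 counts). In HET20 it was at 8.403 CPM, rank 19 of 23 and below the 10.2 CPM median of the other 20, which ran from 6.17 to 16.9. IER2 had the smallest ratio to the median of the 20 in CF1 and in WT12, but not in HET20, with 65.7 CPM in CF1 (2702 counts), 29.8 in WT12 (1212 counts) and 22.9 in HET20 (1175 counts), against 12.03, 15.001 and 25.6 CPM. HET20 was inside the range of the other 20 for IER2.

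**Figure D1:**
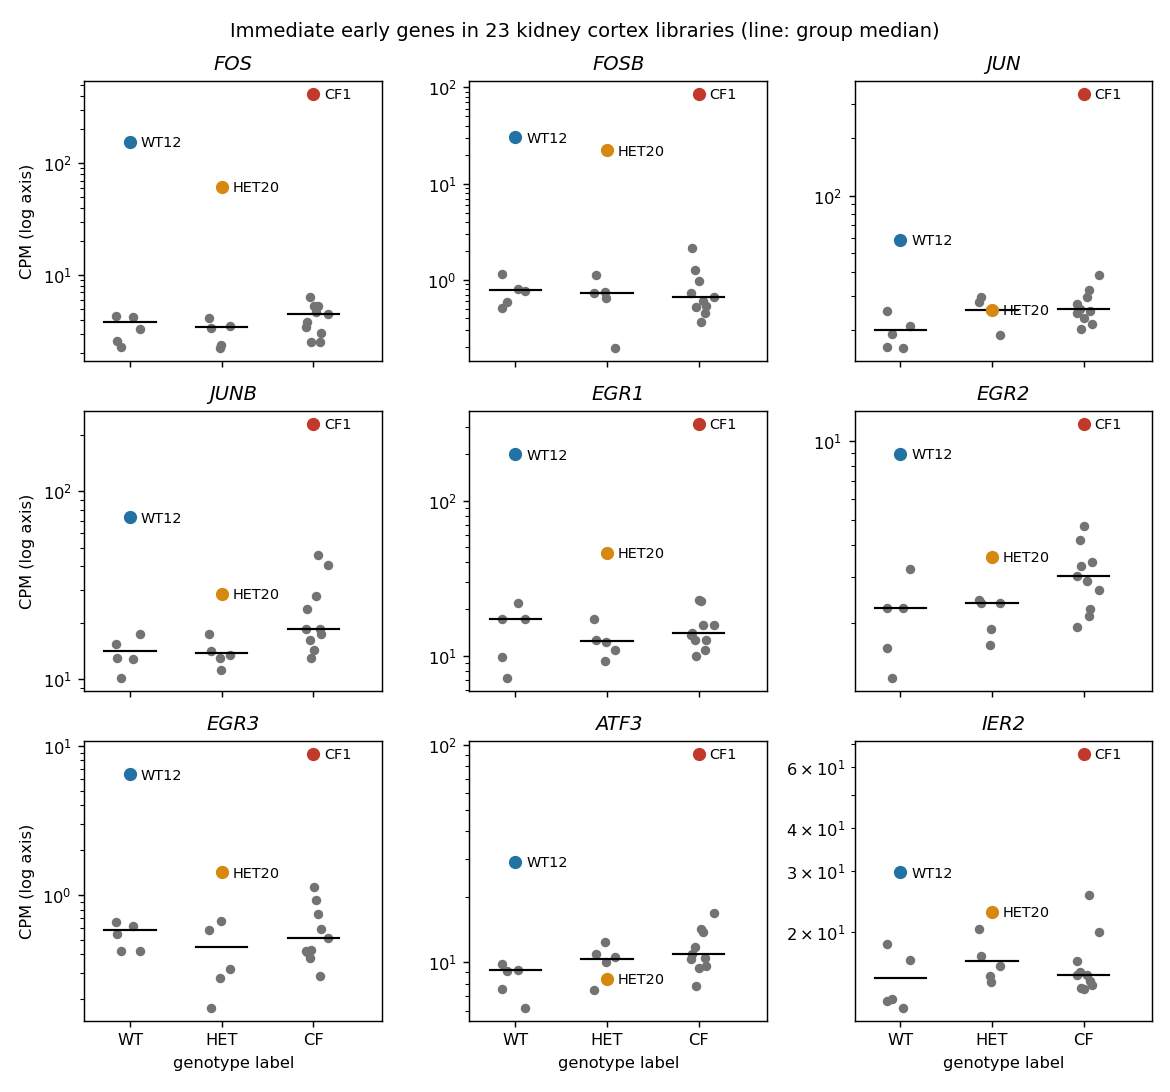
Level of each gene in CPM (log axis) in each of 23 libraries by genotype label, with the group median as a line and CF1, WT12 and HET20 in colour. CF1 was the highest library in all 9 panels, and WT12 was the next highest in all 9. HET20 lay above the grey points for FOS (61.9 CPM), FOSB (22.3), EGR1 (46.2) and EGR3 (1.42).

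CF1 was the highest of 23 libraries for 9 of 9 genes, while it was the highest for 13.9% of all genes tested (2974 of 21434). It exceeded 4 times the median of the other 22 for 9 of 9, against 0.378% of all genes (81 genes). The value nearest to that limit was IER2 at 4.33-fold, followed by EGR2 at 4.796-fold. Both shares follow from the choice of the genes and nothing is read from them. WT12, which the choice did not name, exceeded 4 times the median for 5 of 9 (FOS, FOSB, JUNB, EGR1 and EGR3), against 0.21% of all genes (45 genes). HET20 did so for 2 of 9 (FOS and FOSB), against 0.196% (42 genes). None of the other 20 libraries exceeded it for any of the 9 genes. WT12 ranked 2 of 23 for 9 of 9 genes, and HET20 ranked 3 of 23 for FOS, FOSB, EGR1 and EGR3.

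**Figure D2:**
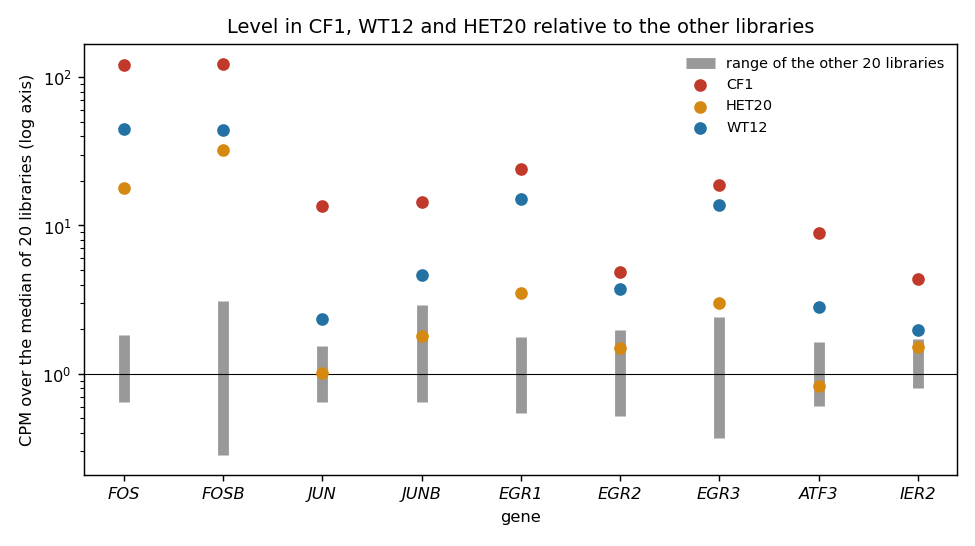
CPM of CF1, WT12 and HET20 divided by the median of the other 20 libraries (log axis), with the range of those 20 as a grey bar. From FOS (120-fold, 44.4-fold and 17.8-fold) to IER2 (4.38-fold, 1.99-fold and 1.52-fold) the excess differed between genes, and HET20 lay within the grey bar for JUN, JUNB, EGR2, ATF3 and IER2.

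The genes were then compared with each other per length, as RPKM, the CPM per kilobase of effective transcript length. In the median of the 20 libraries JUN led with 23.2 RPKM, followed by ATF3 (5.75), IER2 (5.53), EGR1 (3.62), FOS (3.49), JUNB (3.03), EGR2 (0.435), FOSB (0.154) and EGR3 (0.124). In all of CF1, WT12 and HET20 FOS came first, with 419, 155 and 62.1 RPKM. JUN came next in CF1 (314) and HET20 (23.6), and EGR1 (54.9) and JUN (54.2) were nearly equal in WT12. The ratio of FOS to JUN per length was 1.33 in CF1, 2.63 in HET20 and 2.85 in WT12, and 0.0956 to 0.285 in the other 20. The FOS model of the table has 1143 bases, the coding sequence only, so its level per length rests on a shorter model than that of JUNB (5350 bases) or EGR1 (3763 bases). The ratio of EGR1 to FOS went the other way, 0.207, 0.206 and 0.355 against 0.540 to 1.45. Both ratios set the 3 libraries apart from all 20 others, and CF1 had the lowest FOS to JUN ratio of the 3. The ratio of FOS to FOSB (21.96, 12.5 and 22.9) lay within the 7.99 to 81.5 of the others.

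EGR2 and EGR3 have more than 1 transcript model, and kallisto's division of the counts between them differed too. Of the EGR2 estimate, the shorter model of 1500 bases took 42.0% in CF1, 32.2% in WT12 and 19.99% in HET20, and 0 to 17.7% in the other 20 (median 2.63%). For EGR3, the model of 4042 bases took 96.8% in CF1 and 71.8% in WT12, but 20.5% in HET20, with a median of 0 and a highest share of 64.8% in the other 20. These shares are model estimates on few counts in the 20 libraries, so no interval is given. ATF3 has 4 models, and the most used of them took 45.3% in CF1, 47.5% in WT12 and 37.2% in HET20, within the 16.04% to 73.7% of the others.

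Other early response genes were taken from lists put together with earlier results of these data known. Of 20 further early transcription factors, 4 exceeded 4 times the median of the other 22 libraries in CF1, 2 in WT12 and 0 in HET20. NR4A3, an orphan nuclear receptor, was at 22.6 CPM in CF1 and 11.5 in WT12 against 1.95 at most in the 20. Its relative NR4A2 was at 46.1 and 42.2 CPM against 6.97. CSRNP1, an AXIN1-induced nuclear protein, was at 46.5 CPM in CF1, 14.9 in WT12 and 10.8 at most in the 20. HET20 was at 1.56, 8.34 and 9.76 CPM for these genes. Of 34 early feedback and effector genes, 11 exceeded the limit in CF1, 3 in WT12 and 0 in HET20. The highest ratios in CF1 were those of the chemokine CXCL8 (5.86 CPM against 1.97 at most in the 20, and 0.639 in WT12), the antiproliferative gene BTG2 (239 against 25.1, and 70.6 in WT12) and the chemokine CXCL2 (14.8 against 6.66, and 7.202 in WT12). The background of that limit is the 0.378%, 0.21% and 0.196% given above. HET20 thus had the FOS and FOSB excess with none of these genes past the limit.

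Of 23 upstream regulators and partners, among them SRF, ELK1, CREB1 and the MAP kinases, 0 exceeded the limit in any of the 3 libraries. SRF and CREM are named after their values were seen. SRF, the factor of the CArG box, was at 70.6 CPM in CF1, 46.1 in HET20 and 44.8 in WT12, against 44.8 at most in the 20. CREM, whose short isoforms repress cyclic AMP responses, was at 40.5 CPM in CF1 and 27.1 in WT12 against 15.3 at most in the 20. Of 14 heat shock genes, 3 exceeded the limit in CF1 and 0 in WT12 or HET20. HSPA6, an inducible HSP70, was at 42.8 CPM in CF1 against 5.55 at most in the 20, with 0.885 in WT12 and 1.498 in HET20. HSP70.2 was at 2081 CPM against 203, with 122 and 113. DNAJB1, an HSP40 co-chaperone, was at 314 CPM against 66.6, with 41.8 and 57.6. High heat shock transcripts were therefore seen in CF1 and not in WT12 or HET20. Of 16 hypoxia response genes, 0 exceeded the limit in any of the 3. The highest ratios in CF1 were those of PFKFB3 (130 CPM against 138 at most in the 20), SLC2A1 (87.7 against 91.2) and DDIT4 (70.3 against 55.7).

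**Figure D3:**
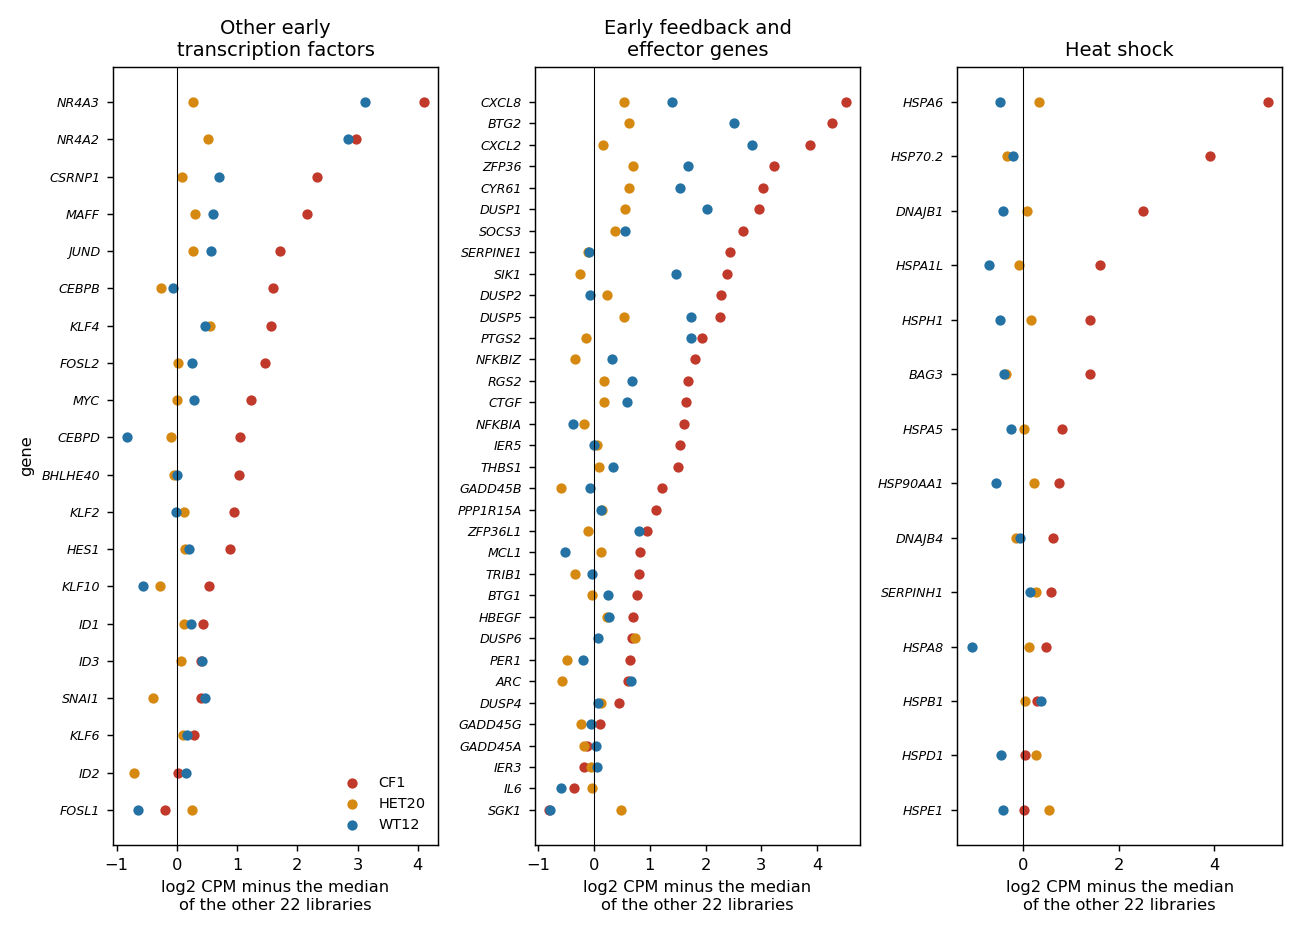
Log2 CPM of each gene of 3 lists in CF1, HET20 and WT12, minus the median of the other 22 libraries (prior count of 2). NR4A3, NR4A2, BTG2, CXCL2 and DUSP1 lay to the right in CF1 and WT12, while HSPA6, HSP70.2 and DNAJB1 lay to the right in CF1 with WT12 at or left of 0.

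Among genes with a mean of at least 1 CPM, the 10 with the largest distance between CF1 and the highest other library, members left out, were HSP70.2, SLA-5, HSPA6, DNAJB1, DUSP2, BTG2, IL1B, CSRNP1, ZFP36 and CYR61. SLA-5, a class I histocompatibility gene that shares sequence with its paralogs, was at 18.4 CPM against 2.22 at most in the 20, and is uncertain for that reason. IL1B, an inflammatory cytokine, was at 8.68 CPM against 2.63, with 0.934 in WT12 and 0.875 in HET20. Over the 21434 genes past the filter, CF1 and WT12 shared 20 genes past the limit of 4 times the median, 24.7% of those of CF1 and 44.4% of those of WT12. Beside 5 of the 9 genes these were the early response genes BTG2, DUSP1, NR4A2, NR4A3 and CXCL2. The rest were on no early response list: RASD1, CLDN11, CYP2C36, EEF1A2, RANBP3L, SLA-5 and genes named only by LOC numbers. Some of these did not exceed the highest of the 20, such as RANBP3L (5.91 CPM in CF1 and 13.4 in WT12 against 19.3). DUSP1, a phosphatase that switches MAP kinases off, was at 250 CPM in CF1 and 132 in WT12, against 47.5 in HET20 and 41.2 at most in the 20. CF1 and HET20 shared 5 genes, 6.17% of those of CF1 and 11.9% of those of HET20.

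CF1 also differed in other measures. Its summed erythroid markers were at 479 CPM against 105 to 228 in the other libraries labelled CF, 154 to 213 in HET and 94.7 to 249 in WT. Of those 7 markers, 4 exceeded 2-fold in CF1, none was at or under 3 counts in every library, and WT12 had the highest sum of the rest. Its summed smooth muscle and pericyte markers were at 996 CPM against 305 to 492, 352 to 444 and 328 to 610, with 3 of 6 markers over 2-fold. ACTA2, smooth muscle actin, was at 418 CPM against 295 at most in the 20. CF1 was also above all of the 20 for the summed proximal tubule (13927 CPM against 12536 at most), podocyte (1219 against 1134), endothelial (761 against 727) and collecting duct markers (186 against 179, with WT12 at 205). By the median of log2 over the other libraries, CF1 was above all 20 for proximal tubule (0.53 against 0.48) and endothelial markers (0.51 against 0.20). It was within the 20 for podocyte (0.31, highest 0.38) and collecting duct markers (0.17, highest 0.46). HET20 was within the range of the other 20 libraries for the smooth muscle sum (444 CPM) and the erythroid sum (213 CPM). For the thick ascending limb and distal tubule markers its sum, 2192 CPM, was above all 20 (1105 to 2056), with CALB1, a calcium-binding protein of the distal tubule, at 404 CPM against 321 at most. WT12 was at 2027 CPM for that sum. The median of the 5 markers, as log2 over the other libraries, was 0.40 in HET20 and 0.43 in WT12, within the -0.39 to 0.58 of the 20. CALB1 was the 1 marker over 2-fold in HET20, where it also exceeded 4-fold. In CF1 and WT12, 0 of the 5 exceeded 4-fold. The median of 8 leukocyte markers, as log2 over the other libraries, was 1.31 in HET20, 1.08 in CF1 and -0.03 in WT12, against -0.95 to 1.25 in the 20. Of these 8, 3 exceeded 4-fold in HET20 (the neutrophil genes S100A8, S100A9 and S100A12) and 0 in CF1, where 5 exceeded 2-fold. The summed leukocyte markers of HET20, 99.7 CPM, were below those of the highest library labelled HET (119.6 CPM). CF1 had the lowest TMM factor of the 23 libraries (0.882). WT12 had the highest share of counts on noncoding transcripts, 21.6% against 12.7% to 15.5% in the 20, and in its 10 most abundant genes, 20.2% against 12.04% to 15.7%. For ribosomal protein genes WT12 had the lowest share, 1.91% against 2.30% to 2.94% in the 20, and HET20 the highest, 2.96%. The lowest noncoding share was that of CF1, 12.4%. Whether these measures bear on the immediate early genes was not tested.

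The study compares the libraries labelled CF with those labelled non-CF, and the CFTR levels above go against reading these labels as loss of the transcript. The comparison was tested with edgeR's quasi-likelihood test, Benjamini-Hochberg adjusted over 20973 genes, without CF1 because CF1 chose the genes. Of 9 genes 0 passed an adjusted p of 0.05, while 0.41% of all genes did (86 genes, 54 higher and 32 lower in CF, and 55 and 51 with upper-quartile scaling). That count ran from 4 to 227 as single libraries were left out, while the count of members stayed at 0. At an unadjusted p of 0.05, 3 of 9 passed, against 14.7% of all genes, and all 3 were lower in CF. FOS had a log2 fold change of -2.32 (SE 0.767, adjusted p = 0.148, edgeR), FOSB of -2.61 (SE 0.826, adjusted p = 0.131) and EGR1 of -1.07 (SE 0.486, adjusted p = 0.301). Of all genes 49.8% were higher in CF, and of the 9 members 4. The other members had EGR3 at -0.83, IER2 at -0.08, JUN at 0.05, ATF3 at 0.08, EGR2 at 0.12 and JUNB at 0.25, all on the log2 scale. The median of the 9 was -0.08, beside -0.00071 over all genes. DESeq2 called 0 of 9 (2.67% of all genes, and 1 member had no adjusted p), with 0 of 9 at an unadjusted p of 0.05 (15.4%). Its log2 fold changes were -0.98 for FOS and -0.12 for EGR1, and it turned FOSB to 0.18 and EGR3 to 0.078. The Mann-Whitney U test called 0 of 9 (0.187%), with 1 of 9 at an unadjusted p of 0.05 (11.8%).

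The direction of this comparison hung on which of the 3 libraries were in. With all 23 libraries, given as a description, 9 of 9 genes were higher in CF, as were 49.8% of all genes, by 0.27 (IER2) to 1.09 (JUN) on the log2 scale, with a median of 0.77. With CF1 left out, 4 were higher and 5 lower. With HET20 and WT12 left out as well, a choice made after their levels were seen, 10 CF libraries stood against 10 non-CF libraries. All 9 genes were then higher in CF, against 49.3% of all genes, with a median of 0.30, but 0 of 9 passed an adjusted p of 0.05, against 0.0192% of all genes (4 genes). At an unadjusted p of 0.05, 3 of 9 passed (JUNB, EGR2 and ATF3), against 13.4%. FOS was then at 0.36 (SE 0.177, edgeR adjusted p = 0.378), FOSB at 0.17 (SE 0.300, adjusted p = 0.853) and EGR1 at 0.15 (SE 0.186, adjusted p = 0.776). Without CF1 and WT12, and with HET20 in, FOS was at -1.05, FOSB at -1.72, EGR1 at -0.13 and EGR3 at 0.06.

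JUNB had the largest difference among the 20 libraries. It was at 23.7 ± 11.3 CPM (SD, n = 10) in CF, against 13.8 ± 2.32 (n = 5) in HET and 13.7 ± 2.76 (n = 5) in WT. The log2 fold change of CF against non-CF was 0.78 (SE 0.200), with an adjusted p of 0.108 in edgeR, 0.168 in limma-voom, 0.0123 in DESeq2 and 0.172 in the Mann-Whitney U test, so DESeq2 alone called it, where it called 1.38% of all genes. The CF libraries ran from 13.1 to 45.9 CPM and the 10 non-CF libraries from 10.2 to 17.5, an overlap in which 4 of 10 CF libraries lay. HET20 (28.5 CPM) and WT12 (73.0 CPM) were left out after their levels were seen, and both lay above that non-CF range. CF7 and CF9, with more JUNB than HET20, stayed in. The choice thus lowered the non-CF mean and spread. With both in, JUNB was at 19.9 ± 17.4 CPM (SD, n = 12) in non-CF. Pigs 1 to 6 and 12 to 18 (the lower-numbered set) and pigs 7 to 11 and 19 to 23 (the upper-numbered set) separated on the second axis of a multidimensional scaling plot of all libraries, and the labels name no batch. Within the lower set JUNB was at 17.8 ± 5.89 CPM (n = 5) in CF and 13.5 ± 2.69 (n = 6) in non-CF. Within the upper set it was at 29.5 ± 12.9 (n = 5) and 14.2 ± 2.23 (n = 4). The log2 fold changes were 0.40 (SE 0.191, edgeR adjusted p = 0.4803) and 1.07 (SE 0.268, adjusted p = 0.0865). With WT12 in, the non-CF mean of the lower set was 22.02 ± 22.6 CPM (n = 7) and the log2 fold change turned to -0.31 (SE 0.460, edgeR adjusted p = 0.848). Without CF1, HET20 and WT12, JUNB was higher in CF in both sets and passed in neither, where 0.00474% and 0.834% of all genes passed.

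EGR2 differed next, with 3.07 ± 0.887 CPM (n = 10) in CF against 2.16 ± 0.359 (n = 5) in HET and 2.13 ± 0.765 (n = 5) in WT. Its log2 fold change was 0.52 (SE 0.170, edgeR adjusted p = 0.189). The means were farther apart in the lower set, at 3.71 ± 0.724 (n = 5) in CF and 2.01 ± 0.713 (n = 6) in non-CF. In the upper set they were 2.42 ± 0.441 (n = 5) and 2.36 ± 0.0804 (n = 4). The difference between the sets was not tested. ATF3 was at 11.5 ± 2.69 CPM in CF, 10.3 ± 1.79 in HET and 8.401 ± 1.51 in WT, and JUN at 26.7 ± 5.47, 25.4 ± 4.11 and 19.6 ± 3.71. IER2 and FOSB differed between labels by less than their spread, with IER2 at 16.3 ± 3.75, 16.5 ± 2.39 and 14.5 ± 2.84 CPM and FOSB at 0.829 ± 0.536, 0.691 ± 0.331 and 0.765 ± 0.249.

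**Figure D4:**
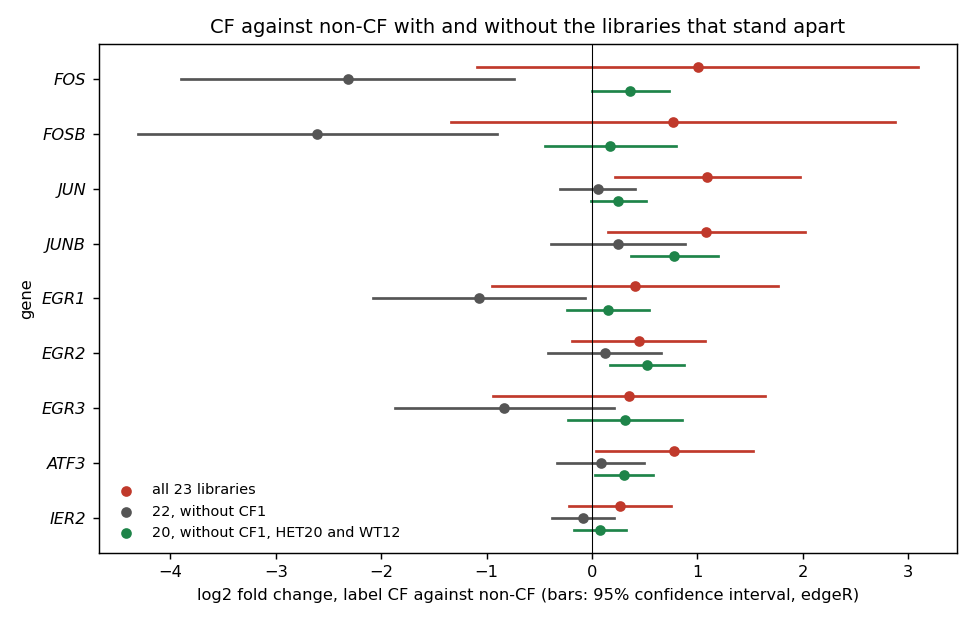
Log2 fold change of the libraries labelled CF against non-CF, with 95% confidence intervals from edgeR, for all 23 libraries (red), 22 without CF1 (grey) and 20 without CF1, HET20 and WT12 (green). FOS moved from 1.005 to -2.32 to 0.36 and FOSB from 0.77 to -2.61 to 0.17, and JUNB was the gene with the highest green value (0.78).

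Between single labels, fitted together on the 22 libraries, 0 of 9 genes passed in CF against WT, where 0.36% of all genes passed, with 4 of 9 at an unadjusted p of 0.05 against 14.5% of all genes. FOS had the lowest adjusted p (log2 fold change -2.78, SE 0.851, adjusted p = 0.115, edgeR). Without WT12, FOS turned to 0.32 (SE 0.619, edgeR adjusted p = 0.871), and all 9 genes were then higher in CF than in WT. In CF against HET 0 of 9 passed (0.0% of all genes), with FOSB at -2.39 (SE 0.931, adjusted p = 0.331, edgeR) as the 1 gene past the unadjusted limit (11.8% of all genes). Without HET20, FOSB turned to 0.24 (SE 0.860, edgeR adjusted p = 0.954) and 0 of 9 passed that limit. In HET against WT 0 of 9 passed (0.00467% of all genes), with EGR1 at -1.32 and EGR3 at -1.38 past the unadjusted limit, as were 9.2% of all genes. DESeq2 called 0 of 9 in each of the 3, where 3.0% (CF against WT), 0.299% (CF against HET) and 0.164% (HET against WT) of all genes passed, and gave 4 of 9 no adjusted p. The 3 comparisons share libraries. Without CF1, HET20 and WT12, the log2 fold change of EGR1 between HET and WT was -0.22 and that of EGR3 -0.38, and that of JUN was 0.38 (SE 0.164, edgeR adjusted p = 0.758).

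Of the 20, 34 and 23 genes of the other early response and upstream lists, 4 in all passed in CF against non-CF on the 22 libraries, beside 0.41% of all genes. KLF10, a TGF-beta inducible factor, rose, with a log2 fold change of 0.56 (SE 0.104, adjusted p = 0.0291 by edgeR). GADD45B, a stress gene, rose as well (1.16, SE 0.235, adjusted p = 0.0367), and so did the CREB1 transcript (0.31, SE 0.0593, adjusted p = 0.0367). DUSP6, a phosphatase of ERK, fell by 0.54 on that scale (SE 0.117, adjusted p = 0.0426). Of the 20 further early transcription factors 12 were higher and 8 lower in CF, of the 34 feedback and effector genes 21 and 13, and of the 23 upstream genes 12 and 11, where 49.8% of all genes were higher. The heat shock list had 0 of 14 called by edgeR and 10 of 14 at an unadjusted p of 0.05, where 14.7% of all genes were, with 12 lower in CF and a median of -0.36. The hypoxia list had 0 of 16 called and 6 of 16 at that unadjusted p. Without the 3 libraries none of the 4 genes passed, with log2 fold changes of 0.52 (KLF10), 1.16 (GADD45B), 0.31 (CREB1) and -0.51 (DUSP6) and edgeR adjusted p of 0.0783 to 0.0831.

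Whether the genes varied together over pigs was asked of all 36 pairs, as Pearson's r of log2 CPM with a two-sided permutation test of 100000 resamples, adjusted over the pairs. In the 22 libraries 33 of 36 pairs passed an adjusted p of 0.05 (median r 0.65, from 0.38 to 0.93), while by Spearman's rho 16 did. The lowest r that passed was 0.48, which 6.85% of all pairs of 18125 genes reached in the same libraries. That count rested mainly on WT12: without WT12 alone 11 pairs passed, and without HET20 alone 34. Without both, 7 of 36 passed (median r 0.27, from -0.08 to 0.73), and 6 by Spearman's rho, with 0.61 as the lowest r that passed, which 2.54% of all gene pairs reached. The gene pairs share libraries and scaling.

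The 7 pairs that passed among the 20 libraries fell into groups that shared no gene. The first joined JUN, JUNB, ATF3 and IER2: JUN with IER2 (r = 0.73, rho = 0.69), JUNB with IER2 (0.73, 0.64), JUN with JUNB (0.71, 0.64), JUN with ATF3 (0.68, 0.65) and JUNB with ATF3 (r = 0.61). The other joined FOS with EGR1 (r = 0.73, rho = 0.74) and EGR1 with EGR3 (0.63, 0.59). Adjusted permutation p of r ran from 0.00408 to 0.0237 over these 7 pairs (n = 20). JUNB with ATF3 was the pair that rho did not call. No pair of FOS with JUN, FOSB or JUNB passed. Centred on genotype label, 5 of the 7 remained, and centred on pig number set, all 7. When for each pair the 2 libraries farthest from the median of the first-named gene were left out as well, FOS with EGR1 stayed (r = 0.84, adjusted permutation p = 0.0018, n = 18). JUN with IER2 (r = 0.65), JUN with JUNB (0.61), JUN with ATF3 (0.60) and EGR1 with EGR3 (0.59) then had an adjusted permutation p of 0.053. Without CF7 and CF9, JUNB with IER2 fell to r = 0.40 (adjusted permutation p = 0.265, n = 18) and JUNB with ATF3 to r = 0.31 (adjusted permutation p = 0.451, n = 18). Of the 7 relations, 6 thus no longer passed without the libraries at the ends. Leaving those out also cut n to 18 and narrowed the range. A lost call alone therefore does not show whether a relation rested on them. Within the lower-numbered set, WT12 included, 26 of 36 pairs passed (n = 12), and within the upper-numbered set, HET20 included, 5 did (n = 10).

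**Figure D5:**
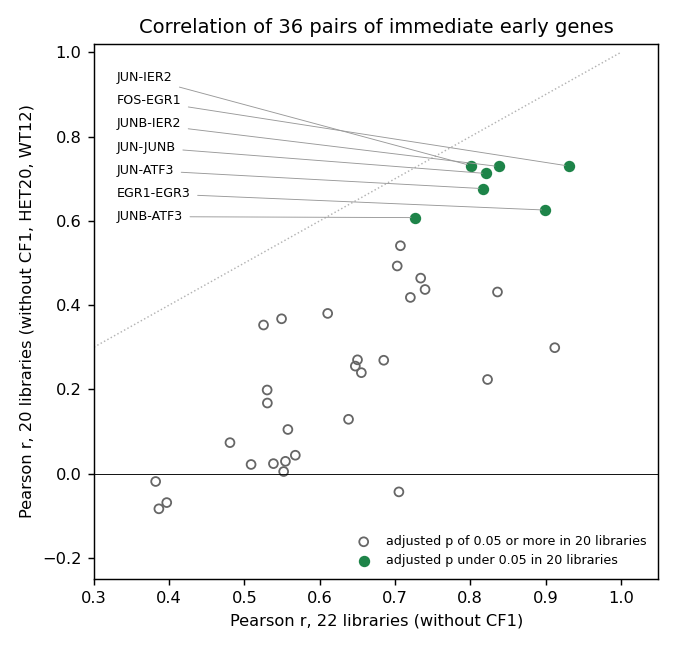
Pearson's r of each of 36 gene pairs in 22 libraries (x axis) and in the 20 left without HET20 and WT12 (y axis), with the diagonal dotted. All points lie below the diagonal, and the 7 filled points are the pairs that passed in the 20 libraries.

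The genes most like the mean of the 9 standardised members over the 22 libraries were DUSP1 (r = 0.92, rho = 0.70), BTG2 (0.91, 0.60), ZFP36 (0.88, 0.71), NR4A2 (0.87, 0.45), ATOH7 (0.85, 0.52), CYR61 (0.83, 0.67), NR4A3 (0.78, 0.25), SLC2A3 (0.77, 0.60), FAM84A (0.76, 0.64) and JUND (0.76, 0.76). The values are descriptions over 18125 genes, and the libraries share depth and scaling. For NR4A3 r was 0.78 and rho 0.25. Of the 22 libraries WT12 had 11.5 CPM of it, against 1.56 in HET20 and 1.95 at most in the 20. Whether its likeness rested on WT12 was not tested. Of the 52 further early response genes that could be ranked, 13 were among the 100 most alike. Over the 20 libraries 5 of 52 were, and the 10 most alike were then other genes, led by SLC52A3 (r = 0.77), SEMA3F (0.76) and RTN2 (0.76), none of them on an early response list.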

How the data were processed

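Total RNA from newborn pig kidney cortex was made into stranded, ribosomal-RNA-depleted libraries and sequenced on an Illumina NovaSeq. The authors quantified reads against Sscrofa11.1 transcripts with kallisto and deposited, per library, estimated counts and TPM for 77689 transcripts. Depth was 32901194 to 52952229 estimated counts a library. Estimated counts were summed per gene symbol and rounded to whole numbers. Levels are TMM-scaled CPM, divided by effective length where genes were compared with each other. TPM values as the authors deposited them served only as an alternative for the pairs (log2 of TPM plus 0.1). Samples were grouped by GEO's genotype labels. edgeR 4.0.16 (R 4.3.3; TMM, filterByExpr, quasi-likelihood test, Benjamini-Hochberg limit 0.05) was fitted over all genes, without CF1. Alternatives used DESeq2 1.42.0, limma 3.58.1, the Mann-Whitney U test of the study, other normalizations and filters, the pig number sets and each library left out. Fits without CF1, HET20 and WT12 were added after seeing the data. Pairs were tested with numpy 2.4.6 and scipy 1.17.1. The count tests were checked on simulated data. The members and lists were chosen with earlier results of these data known. Genes named are the members, the 3 highest CF1 ratios of a list, called list genes, the 10 largest CF1 distances and the 10 most alike. The p-values of the comparisons measure the spread between pigs within the groups compared, with WT and HET as 1 group in CF against non-CF. The permutation p-values of the pairs come from shuffling libraries regardless of label.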

Additional observations from a re-analysis of the deposited data

Results flagged for a closer look

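In several groups 1 library lay so far from the next that its gap, relative to the range of the group, exceeded Dixon's 95% critical value, which chance gives in about 1 in 20 groups. Among the 6 libraries labelled WT this was WT12 for every member: 155 CPM for FOS, 30.4 for FOSB, 58.7 for JUN, 73.0 for JUNB, 199 for EGR1, 8.92 for EGR2, 6.47 for EGR3, 28.9 for ATF3 and 29.8 for IER2. Among the 6 labelled HET it was HET20 for FOS (61.9 CPM), FOSB (22.3), JUNB (28.5) and EGR1 (46.2). Among the 10 labelled CF without CF1 it was CF11 for FOSB, at 2.15 CPM. The groups of 11 were not tested in this way.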

How the results depend on the processing

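No paired analysis was possible because the labels name no litter, and every pig number belongs to 1 library. The paper pairs littermates in its metabolite work. Pigs here may share a litter too, and the tests treat them as independent. Of 9 members, 0 passed in CF against non-CF in any alternative except DESeq2 without CF1, HET20 and WT12, which called 1, JUNB. Leaving out any 1 library gave 0 in each of the 4 comparisons. Directions in CF against non-CF turned with CF1 in (FOS 1.005, FOSB 0.77, EGR1 0.41, EGR3 0.35, IER2 0.27, log2), without the 3 libraries (0.36, 0.17, 0.15, 0.31, 0.078), with DESeq2 (FOSB 0.18, EGR3 0.078), in the lower-numbered set (JUN -0.27, JUNB -0.31, ATF3 -0.23), in the upper-numbered set (EGR2 -0.10, IER2 0.13) and with WT alone as control (JUNB -0.0062, EGR2 -0.089, ATF3 -0.040). Leaving out 1 library gave JUN -0.017 to 0.23, EGR3 -0.99 to 0.064 and IER2 -0.18 to 0.017. In HET against WT they turned with voom (JUN 0.13), voom weights (FOS 0.30, FOSB 0.43, JUN 0.21, ATF3 0.089), in the upper-numbered set (FOS 2.78, FOSB 3.59, JUN 0.58, JUNB 0.63, EGR1 0.66, EGR2 0.31, EGR3 0.43, ATF3 0.082), in the lower-numbered set (IER2 -0.33) and without the 3 libraries (JUN 0.38, JUNB 0.016, EGR2 0.030, ATF3 0.30). Leaving out 1 library there gave FOS -3.19 to 1.96, FOSB -3.04 to 2.49, JUN -0.14 to 0.38, JUNB -0.77 to 0.25, EGR1 -1.86 to 0.31, EGR2 -0.61 to 0.18, EGR3 -1.88 to 0.13, ATF3 -0.38 to 0.25 and IER2 -0.042 to 0.28. Without WT12 all 9 members were higher in CF against WT, where 2 were with it, and without HET20 8 were higher in CF against HET, where 5 were with it. Pairs called, 33 of 36, became 16 by Spearman's rho, 5 in the upper-numbered set, 7 without the 3 libraries (6 by rho, 5 centred on label, 7 centred on number set) and 11 (without WT12) to 34 on leaving out 1 library. Over all genes, 86 calls in CF against non-CF became 559 with DESeq2, 38 with voom, 128 with voom weights, 155 with number set as a term, 133 with a 1 CPM filter, 12 and 473 in the lower- and upper-numbered sets, 44 with WT alone, 41 with the Mann-Whitney U test and 4 without the 3 libraries. Apart from which libraries entered a fit, the cause was not tested. Depth limits EGR3 and FOSB most, with as few as 7 and 8 counts.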
